A study of Mus musculus with 2 samples.

Results

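Interleukins are secreted proteins through which immune cells and tissue cells signal to each other, and each acts by joining receptor chains on the target cell. Many receptors pair a chain specific for 1 ligand with a shared chain such as gp130, and soluble decoys and receptor antagonists hold the ligand or the receptor back. In the liver, interleukins made largely by resident macrophages and lymphocytes act on hepatocytes, where the interleukin 6 pathway is known for driving acute phase proteins and the interleukin 22 pathway for epithelial protection and repair.

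All genes whose symbol is Il followed by a digit were taken as the interleukin and interleukin receptor genes. They numbered 78 of the 22180 genes measured by a probe set with exactly 1 gene symbol. By role, they comprised 37 ligands, 34 receptor chains, 6 inhibitors or decoys and 1 antisense RNA. Only Il1rap had several such probe sets, and the one with the highest mean of both arrays stood for it.

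The irradiated group was 1 liver sample, labelled as male, 9 weeks old and of the inbred mouse strain C57BL/6. It had received 6 Gy of whole-body gamma radiation under anaesthesia at 4 weeks of age, at 0.81 Gy per minute, 5 weeks before the RNA was taken. The control group was 1 untreated liver sample of the same sex, strain and age. The labels do not say whether an RNA came from 1 mouse or a pool, nor whether the control was anaesthetised. Each group had 1 array and so no replicate, which leaves every difference below untested and the spread between animals unknown.

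Levels are given as log2 RMA values, and each difference is the irradiated minus the control value on that scale. A gene was counted as above the floor when it reached 6.06, the median over the whole deposited table, on at least 1 array. This floor is a rank among the array's values and not a measured background. Probe sets also differ in how they respond, so levels of different genes are not directly comparable. Counts against the floor, and the linear signals summed over marker genes below, carry this limit. The albumin gene Alb, a defining hepatocyte product, read 13.70 on the irradiated array and 13.68 on the control array. All 8 hepatocyte markers examined were above the floor, with differences between -0.02 and 0.20.

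Most interleukin genes gave low signals in both livers. Of the 78, 41 were below the floor on both arrays, 52.6%, against 38.3% of all named genes. Ligands made up 23 of these 41, receptor chains 13, inhibitors or decoys 4 and the antisense RNA Il1bos 1. These counts were 62.2% of the ligands, 38.2% of the receptor chains and 66.7% of the inhibitors or decoys. The share of receptor chains was thus near that of all named genes. The other 37 of the 78 genes reached the floor, 34 of them on both arrays. Just under the floor lay the ligand genes Il25, at 5.71 on the irradiated and 5.95 on the control array, and Il17a, at 5.89 on the irradiated and 5.49 on the control array. Just above it lay the receptor antagonist gene Il1rn, at 6.09 on each array, and the receptor gene Il17rd, at 6.17 on the irradiated and 6.00 on the control array.

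Among the 37 genes above the floor, 1 was at least 1.5-fold higher in the irradiated liver, a share to be read against 1.14% of all genes above the floor. None was at least 1.5-fold lower, against 0.65% of all genes above the floor. Counts of 1 and 0 among 37 genes are too small to set these genes apart from that background. The median difference of the 37 was 0, and that of all 13689 genes above the floor was -0.0021. Differences were above 0 for 17 of the 37 and below 0 for 18, with 2 at exactly 0. The median size of the difference, whatever its direction, was 0.11 for the 37 and 0.11 for all genes above the floor. Differences of less than 0.2 in size made up 83.8% of the 37, against 76.9% of all genes above the floor, and those of less than 0.1 made up 43.2%, against 47.8%. Neither direction prevailed among them.

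**Figure D1:**
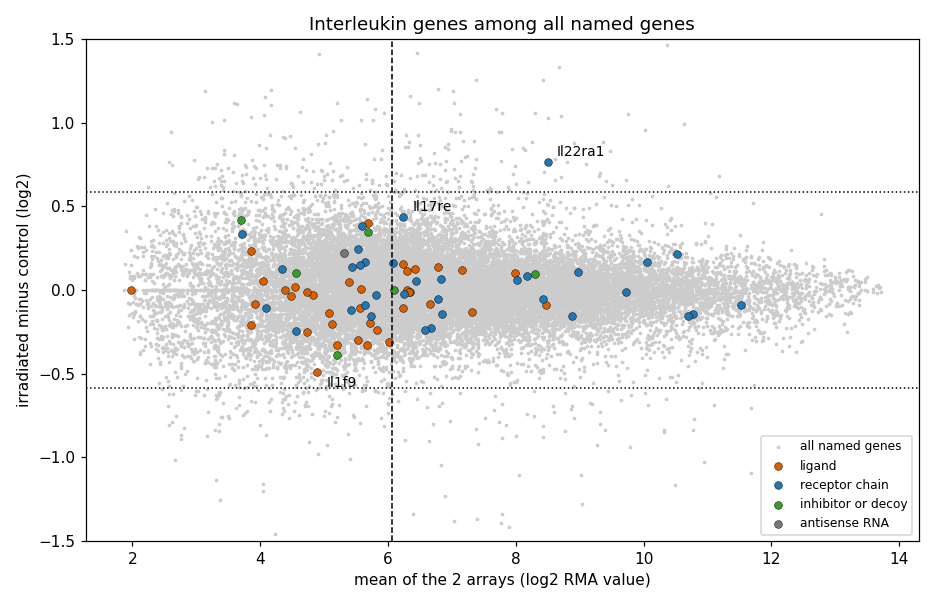
Difference between the irradiated and the control array (log2, vertical axis) against the mean of both arrays (log2 RMA value, horizontal axis) for all named genes in grey and the 78 interleukin genes coloured by role. The dashed line is the floor and the dotted lines mark 1.5-fold; Il22ra1 is the 1 interleukin gene beyond them, and 34 genes outside the vertical range are not drawn.

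Il22ra1 was the gene past 1.5-fold. It encodes the ligand-specific chain of the interleukin 22 receptor, which epithelial cells and hepatocytes carry and immune cells largely lack. It read 8.88 on the irradiated array and 8.12 on the control array, a difference of 0.76 or 1.70-fold. Both readings were above the floor, so the fold does not rest on a value near it. Of the 13689 genes above the floor, 88 differed by as much or more upward, 0.643%.

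The other genes of the same receptor system did not share this difference. Il10rb, the chain that pairs with Il22ra1 and with several other receptors, read 8.22 on the irradiated array and 8.13 on the control array. Il22 itself was below the floor, at 1.98 on each array. Il22ra2, the soluble decoy that binds interleukin 22, read 4.60 on the irradiated and 4.51 on the control array, both below the floor. Il22ra1 also serves as a receptor chain for the ligands Il20 and Il24, together with Il20rb. The Il24 probe set read 6.17 on the irradiated and 6.28 on the control array, and Il20 read 4.38 on each. Il20rb read 5.80 on the irradiated and 5.84 on the control array. Il20ra, another partner of Il20rb, read 5.60 on the irradiated and 5.69 on the control array. Of these receptor and ligand genes, Il22ra1 alone differed by at least 1.5-fold.

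Markers of bile duct, contractile cells and macrophages mostly differed in the same direction as Il22ra1. All 6 bile duct markers measured were above the floor and above 0, with 4 at least 1.5-fold higher, a median difference of 0.97 and a range of 0.19 to 2.62. Their summed linear signal was 1925 on the irradiated array and 649 on the control array. Cd24a and Muc1, with the highest irradiated values at 9.73 and 8.83, weigh most in the irradiated sum. They differed by 2.50 and 2.62, Krt19 and Epcam by 1.20 and 0.75, and Krt7 and Sox9 by 0.29 and 0.19. All 7 stellate and smooth muscle markers were above 0 too, with a median of 0.59 and a range of 0.0052 to 2.42. Of these, 4 were at least 1.5-fold higher, namely Cnn1, Acta2, Des and Tagln. Myh11, Lrat and Reln differed by 0.40, 0.18 and 0.0052. The summed signal of the 7 was 4002 on the irradiated and 2250 on the control array. Of the 8 Kupffer cell and macrophage markers, 7 were above 0 and none was 1.5-fold higher, and their summed signal was 6113 on the irradiated and 5153 on the control array. That of the 8 hepatocyte markers was 65622 on the irradiated and 65572 on the control array. Alb, Ttr, Cyp2e1 and Cps1, at 13.41 to 13.70 on the irradiated array, weigh most in that sum. The highest value on that array was 13.91, and whether signals near it respond in proportion was not tested. Among lymphocyte markers above the floor, 2 of 3 for T and natural killer cells were above 0, with a median of 0.16. For B cells, 0 of 4 were. The part of these cell types in the Il22ra1 difference was not tested. In bulk tissue, more cells of a type and more RNA per cell cannot be told apart.

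The remaining members of the interleukin 10 family differed by at most 1.24-fold. Il10ra, the chain specific for interleukin 10, read 6.75 on the irradiated and 6.81 on the control array. Il10, an anti-inflammatory ligand, was below the floor at 4.47 on the irradiated and 4.50 on the control array. Il19 crossed the floor, reading 5.86 on the irradiated array and 6.18 on the control array, a difference of -0.31. It had the lowest difference of the 37 genes above the floor.

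The interleukin 17 family held the second highest difference of the 37. Il17re, the receptor chain for interleukin 17C found mainly on epithelial cells, read 6.46 on the irradiated array and 6.02 on the control array. Its difference of 0.44 was 1.35-fold, short of 1.5-fold, and its control value lay below the floor. Il17ra, the chain that the family's receptors share, read 8.40 on the irradiated and 8.45 on the control array. Il17rc, which joins it in the receptor for interleukins 17A and 17F, read 8.81 on the irradiated and 8.96 on the control array. Il17rb, the receptor chain for interleukin 25, read 8.05 on the irradiated and 7.99 on the control array. Of the 5 receptor chains, Il17re therefore differed most, while its gene neighbour Il17rc differed by -0.15.

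Ligands of this family differed by less than Il17re. Il17c read 6.32 on the irradiated and 6.34 on the control array. Il17d read 6.85 on the irradiated and 6.71 on the control array. Il17f read 6.35 on the irradiated and 6.23 on the control array. Il17a, the neutrophil-recruiting product of T helper 17 cells, had a difference of 0.40 with both values below the floor. Il25 differed by -0.24 and Il17b by -0.21, also below the floor on both arrays. No direction was common to the 6 ligands.

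**Figure D2:**
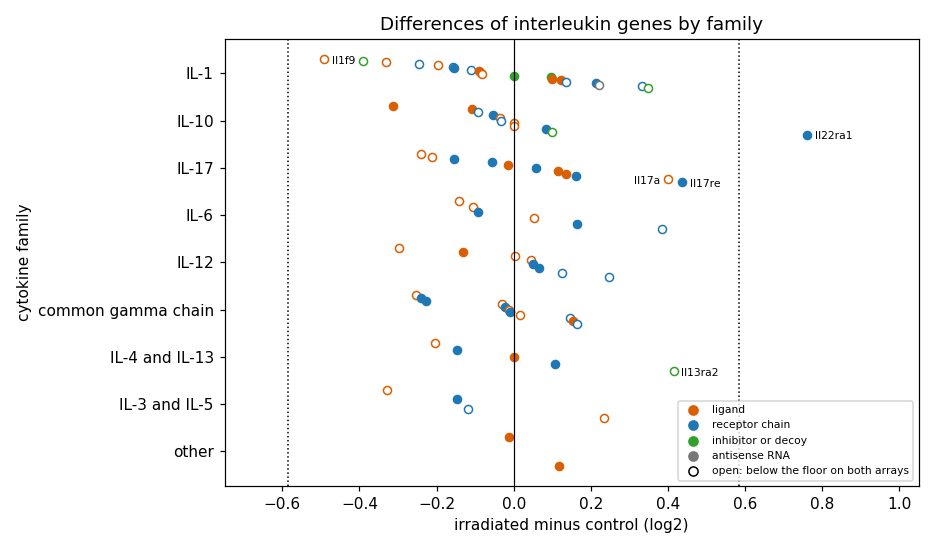
Difference between the irradiated and the control array (log2, horizontal axis) for each of the 78 genes, grouped by cytokine family (vertical axis) and coloured by role, with open circles for genes below the floor on both arrays and genes beyond 0.4 in size named. The dotted lines mark 1.5-fold; Il22ra1 at 0.76 is the only point past either of them.

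Receptor chains of the interleukin 1 family were above the floor for the main signalling pair. Il1r1, the signalling receptor for interleukins 1 alpha and 1 beta, read 10.62 on the irradiated and 10.41 on the control array. This difference of 0.21 was the third highest of the 37, a fold of 1.16. Il1rap, its accessory chain, read 10.62 on the irradiated and 10.77 on the control array, a difference of -0.16. Its other probe sets did not share that direction. One read 9.51 on the irradiated and 9.43 on the control array. The other, below the floor, read 5.00 on the irradiated and 4.54 on the control array. The direction of Il1rap therefore depended on the probe set.

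The ligands of that family that were above the floor moved little. Il1a, an alarm cytokine released by damaged cells, read 8.04 on the irradiated and 7.94 on the control array. Il1b, the inflammasome-processed form, read 6.62 on the irradiated and 6.70 on the control array. Il33, a nuclear alarm cytokine of barrier and stromal cells, read 6.48 on the irradiated and 6.36 on the control array. Each of these differences was at most 0.12 in size. Il18, another inflammasome product, read 8.42 on the irradiated and 8.51 on the control array. Il18bp, its secreted inhibitor, read 8.36 on the irradiated and 8.26 on the control array. Il1rn, the secreted receptor antagonist, had identical values.

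The other genes of the interleukin 1 family were below the floor. They included the interleukin 36 ligand genes Il1f6, Il1f8 and Il1f9, the antagonist gene Il1f5 and the related Il1f10, which lie side by side with Il1rn in the genome. All 5 had negative differences, between -0.08 for Il1f8 and -0.49 for Il1f9. The Il1f9 value was the lowest difference of all 78 genes, at 4.65 on the irradiated and 5.14 on the control array, and since both lay below the floor it is a change in weak signal only. The decoy receptor gene Il1r2, at 5.87 on the irradiated and 5.52 on the control array, differed by 0.35. The receptor genes Il1rl2, Il18r1 and Il18rap and the neuronal receptor genes Il1rapl1 and Il1rapl2 lay between -0.24 and 0.33. Il1bos, an RNA antisense to Il1b, differed by 0.22.

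Both chains of the interleukin 6 receptor were above the floor. Il6ra, the ligand-binding chain, read 10.14 on the irradiated array and 9.98 on the control array, a difference of 0.16. Il6st encodes gp130, the signalling chain that interleukins 6 and 11 share, and read 11.48 on the irradiated and 11.58 on the control array. The pair thus differed in opposite directions, by at most 1.12-fold. Il6, the ligand, was below the floor at 4.06 on the irradiated and 4.01 on the control array. Il11 and Il31, further ligands, differed by -0.11 and -0.14 below the floor, and Il31ra, which lies beside Il6st in the genome, by 0.38.

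Genes of type 2 immunity were above the floor for the receptor and below it for most ligands. Il4ra, the chain shared by the receptors for interleukins 4 and 13, read 9.03 on the irradiated and 8.92 on the control array. Il13ra1, its partner on non-lymphoid cells, read 10.70 on the irradiated and 10.84 on the control array. These differences of 0.11 and -0.15 also ran in opposite directions. The decoy gene Il13ra2 differed by 0.41, but read only 3.91 on the irradiated and 3.49 on the control array. Il13 read 6.30 on each array. Il4 read 5.01 on the irradiated and 5.22 on the control array. Il5, the eosinophil growth factor, read 5.04 on the irradiated and 5.37 on the control array. Of these 3 ligands, Il4 and Il5 lay below the floor on both arrays. Il3ra, the interleukin 3 receptor alpha chain, read 6.77 on the irradiated and 6.92 on the control array. Il5ra and the ligand gene Il3 were below the floor, with differences of -0.12 and 0.23.

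Receptors of the common gamma chain group serve lymphocyte growth factors, and 5 genes of this group were above the floor. Il9r read 6.45 on the irradiated and 6.69 on the control array, a difference of -0.24. Il2rb, which T cells and natural killer cells use for interleukins 2 and 15, read 6.56 on the irradiated and 6.79 on the control array, a difference of -0.23. These were at most 1.18-fold, and were the lowest differences above the floor after Il19. Il15ra, which presents interleukin 15 to those cells, read 9.72 on the irradiated and 9.73 on the control array. Il15 itself read 6.31 on the irradiated and 6.15 on the control array. Il21r read 6.24 on the irradiated and 6.26 on the control array. Of the 8 T and natural killer cell markers measured, 5 were below the floor on both arrays. The summed linear signal of all 8, which includes those 5 weak signals, was 514 on the irradiated and 485 on the control array.

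The ligands of this group were below the floor apart from Il15. Il2, the T cell growth factor, read 4.55 on the irradiated and 4.53 on the control array. Il7, Il9 and Il21 differed by -0.03, -0.01 and -0.25. The alpha chain genes Il2ra and Il7r, also below the floor, differed by 0.16 and 0.15.

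In the interleukin 12 family, which steers T helper cells, 3 of 8 genes were above the floor. Il27 read 7.25 on the irradiated and 7.39 on the control array. Its receptor gene Il27ra read 6.86 on the irradiated and 6.80 on the control array. Il12rb1, shared by the receptors for interleukins 12 and 23, read 6.47 on the irradiated and 6.42 on the control array. These 3 differed by at most 1.10-fold. Below the floor, the subunit gene Il12a differed by -0.30, Il12b by 0.0036 and Il23a by 0.04, and the receptor genes Il12rb2 and Il23r by 0.25 and 0.12. Outside these families, the T cell attractant Il16 read 6.34 on the irradiated and 6.35 on the control array. Il34, a ligand of the macrophage growth factor receptor, read 7.22 on the irradiated and 7.11 on the control array.

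**Figure D3:**
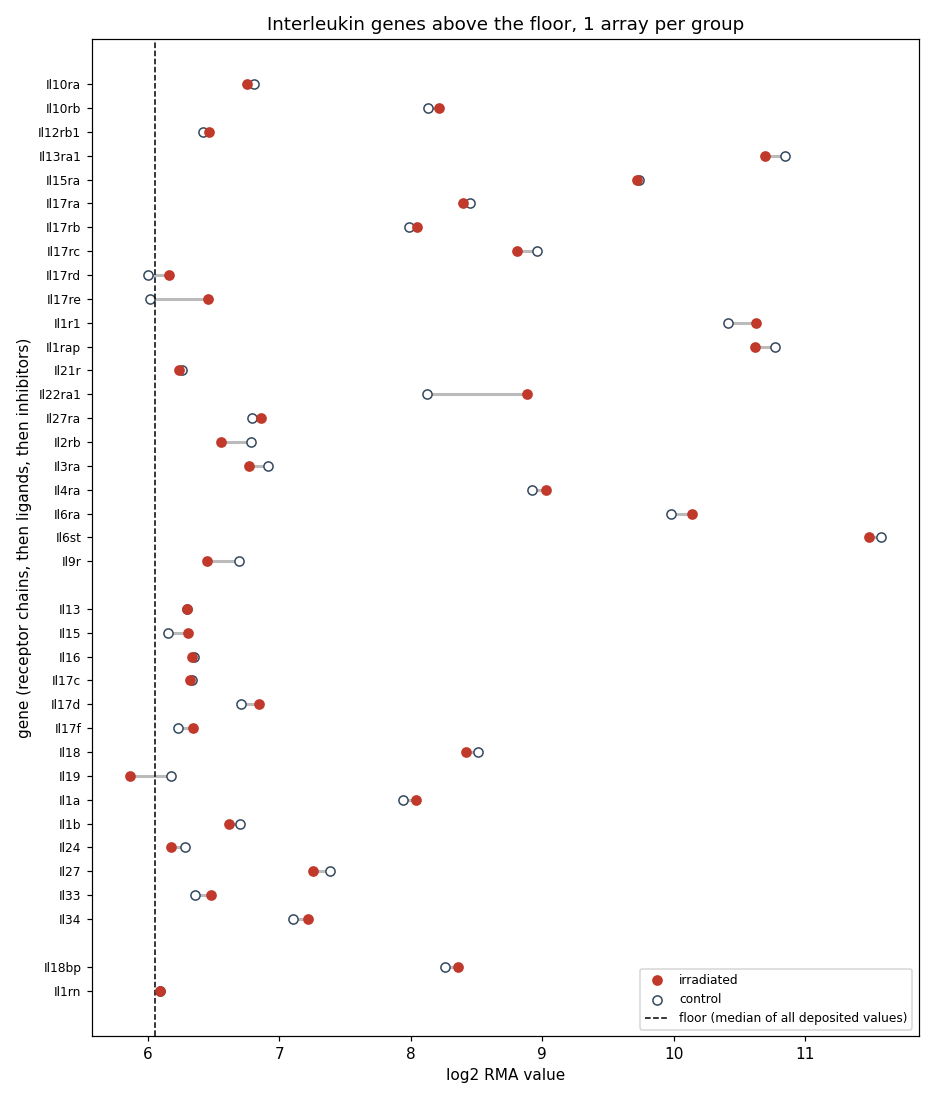
Log2 RMA value (horizontal axis) on the irradiated array (filled red) and the control array (open) for the 37 interleukin genes above the floor, with receptor chains at the top, then ligands, then inhibitors. The dashed line is the floor; the gap between the points is widest for Il22ra1 (8.88 irradiated against 8.12 control), followed by Il17re (6.46 irradiated against 6.02 control).

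Gene position and exact ties were also compared, neither of which the choice of genes used. By the order of protein-coding genes in the reference annotation, 36 of the 78 genes lay in 13 groups with at most 2 other genes between neighbours. Il24, Il20, Il19 and Il10, which adjoin each other, had 3 negative differences and 1 of 0. Il4, Il13 and Il5 had 2 negative and 1 of 0. Beside each other, Il12rb2 and Il23r were both positive, as were Il17a and Il17f. In 8 groups the members went in both directions. The differences of exactly 0 belonged to Il13, Il1rn, Il20 and Il22, whose values were the same on both arrays to every deposited digit. Above the floor, 2 of the 37 genes were tied, against 1.14% of all genes there, and below it 2 of the 41 were, against 4.32%. The reason for these ties was not tested, so a difference of 0 may not be a measured one.

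Of 45 genes in 5 lists, 40 were measured and 35 were above the floor. None of the 35 was at least 1.5-fold higher or lower, a count near the background of 1.14% higher and 0.65% lower among all genes above the floor. JAK kinases and STAT factors, which carry the signal from most of these receptors to the nucleus, had a median of 0.03 over 8 genes. Stat5a, at 7.89 on the irradiated and 8.07 on the control array, had the largest difference among them, -0.17. Adaptors and kinases of the interleukin 1 and 17 receptors had a median of 0.02 over 9 genes, the largest being 0.11 for the kinase gene Map3k7. Inflammasome and processing genes had a median of -0.08 over 4 genes, with Casp1, the protease that matures interleukins 1 beta and 18, at -0.15.

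Partner receptor chains and ligands without an Il symbol came nearest to the threshold. Csf2rb2, the mouse receptor beta chain specific for interleukin 3, read 6.86 on the irradiated array and 6.32 on the control array, a difference of 0.54 or 1.46-fold. Its near-identical neighbour Csf2rb, the beta chain shared with interleukin 5 and GM-CSF, read 6.66 on the irradiated and 6.50 on the control array. Cross-hybridisation between these copies was not tested. The 10 genes listed as partner chains had a median of 0.06. That list includes Ebi3, a secreted subunit that pairs with the Il27 product and not a receptor chain, which differed by 0.28. Interleukin 6 family ligands without an Il symbol had a median of -0.16 over 4 genes, with Clcf1, a gp130 ligand, highest at 0.40.

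**Figure D4:**
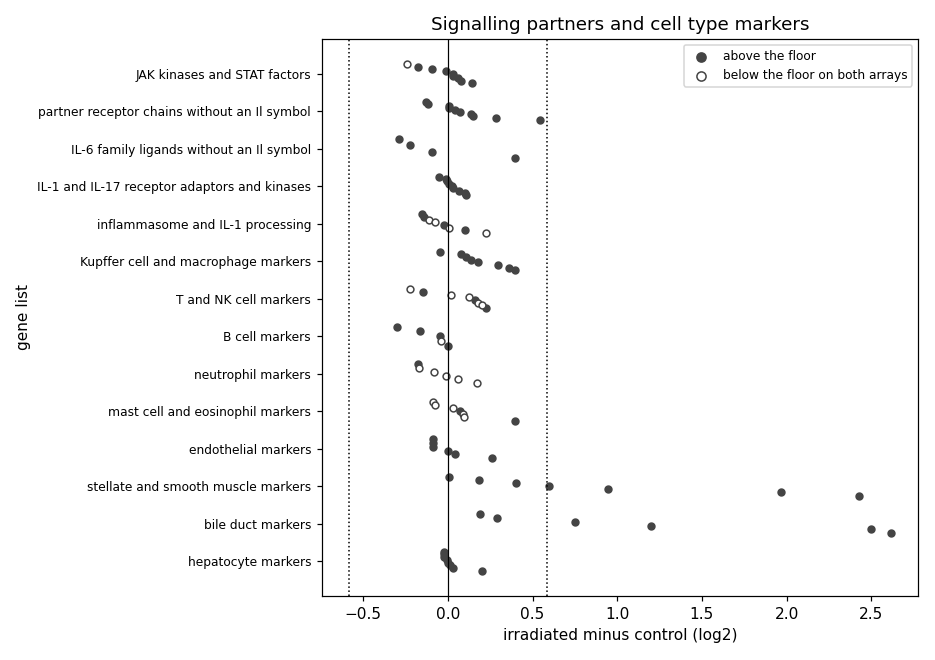
Difference between the irradiated and the control array (log2, horizontal axis) for each gene of the 5 signalling lists and of the cell type marker lists (vertical axis), with open circles for genes below the floor on both arrays. Points of the signalling lists lie between the dotted lines that mark 1.5-fold, while 4 stellate and smooth muscle markers and 4 bile duct markers lie to the right of them.

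The other cell type markers stayed within 1.5-fold where they were above the floor. The 8 markers of Kupffer cells and macrophages had a median difference of 0.16. Of the 6 neutrophil markers 1 was above the floor, as were 2 of the 7 mast cell and eosinophil markers and 4 of the 5 B cell markers. The 6 endothelial markers had a median of -0.04.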

How the data were processed

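The file holds 1 value for each of 41345 probe sets on 2 arrays. The authors deposited log2 values made with RMA in Affymetrix Expression Console 1.3.1, per the submitters' processing notes, from 300 ng of total RNA per array, per the labels' protocols. The log base is read from the range, 1.46 to 13.91, and scanner intensities were not used here. RMA scales the arrays toward a common distribution, so a change in total RNA cannot be seen. The deposited values still differed slightly, with medians of 6.07 on the irradiated and 6.05 on the control array. The largest gap between the sorted values of both arrays was 0.11. The number of arrays limits the precision.

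Gene symbols came from GEO's platform annotation, in which 23521 probe sets had 1 symbol, 1814 several and 16010 none. All 78 genes matched the RefSeq table of mouse assembly GRCm38.p6, used for gene order only. Il11ra1, Il11ra2, Il1rl1 and Il2rg had no probe set of their own and were not analysed here. Il4i1 and Il4i1b shared a probe set with Nup62, at 7.46 on the irradiated and 7.60 on the control array. Marker genes without a probe set of their own were left out.

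With 1 array per group no test was made. Genes were counted at 1.5-fold among those above the floor. Every interleukin gene is named, with both values for those above the floor and for the best known ligands; both values of some other genes below the floor were added after they were seen; of the signalling lists, the gene with the largest difference is named. The genes and lists were chosen with earlier results of these data known. Python 3.11.15, pandas 2.3.3 and statsmodels 0.14.6 were used. The counting code was checked on simulated data with shifts far past 1.5-fold, which does not bear on differences as small as those here. Alternatives changed the probe set kept, the scaling, the floor, the offset and the fold.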

Additional observations from a re-analysis of the deposited data

How the results depend on the processing

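No paired analysis was possible because neither group had a second array. Il22ra1 was the 1 gene at least 1.5-fold higher under each alternative run, except at a 2-fold threshold, where 0 interleukin genes were higher. Its difference lay between 0.70 (32 added on the linear scale) and 0.77 (loess or quantile scaling). Because Il22ra1 has 1 probe set, changing the probe set kept or the floor could not alter that difference. Only the scaling and the offset recomputed it. No interleukin gene was 1.5-fold lower under any alternative. With the floor at the 75th percentile, 63 of the 78 genes were below it on both arrays, 80.8%, against 65.6% of all named genes. The count was 41 with the floor at the median, and a higher floor admits fewer genes by construction. The median difference above the floor lay between -0.02 (quantile scaling) and 0.06 (75th percentile floor). Of 185 recomputed differences of the 37 genes above the floor, 181 moved by less than 0.1. Many of the 181 could not move, because changing the probe set kept alters only Il1rap, the 1 gene with several. The other 4 of the 185 included Il1rap, at 0.46 with the lowest and 0.13 with the mean of its probe sets in place of -0.16. The rest were Il17re at 0.31 and Il19 at -0.21, both with 32 added. All alternatives rerun the same 2 arrays and say nothing about the spread between animals.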
